A study of Mus musculus with 3 samples.

Results

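The nuclei described here were GABAergic nuclei of the mouse basolateral amygdala that carried transcripts of Vip, or of Prox1 and Adra1b together. They numbered 56 of 1646 GABAergic nuclei, and of 8284 nuclei kept after filtering, in the 2 libraries labelled replicates 2 and 3. The study profiled single nuclei of the amygdala at postnatal day 56 with droplet 3' sequencing, in 3 libraries that form 1 group of male C57BL/6NRj mice. The basolateral amygdala of both hemispheres was dissected, and tissue of 4 brains of 1 litter was pooled for sequencing, so no value belongs to a single animal. The sources used here do not say whether the libraries came from separate pools, so libraries 2 and 3 may hold the same animals. No treatment or genotype was compared, and every comparison below sets one kind of nucleus against another within the same libraries.

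Membership was decided by unique molecular identifiers (UMIs), each of which stands for 1 captured transcript molecule. A nucleus entered the GABAergic base when it had at least 1 UMI of Gad1 or Gad2 (the enzymes that make GABA), none of the vesicular glutamate transporters Slc17a7 and Slc17a6, and under 0.1% of its UMIs from the astrocyte glutamate transporters Slc1a2 and Slc1a3. It was a member when it had at least 1 Vip UMI, or at least 1 Prox1 UMI and 2 Adra1b UMIs. Members also had fewer than 3 Foxp2 UMIs, no Sst UMI and fewer than 4 Cnr1 UMIs, and did not carry Reln and Egfr together unless Vip was present. All of these genes chose the members, so their values are given here and below as a description and without a test.

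Cortical and amygdalar interneurons that make vasoactive intestinal peptide arise in the caudal ganglionic eminence and keep the transcription factor Prox1 into adult life. Many of them synapse on other interneurons, in particular those that make somatostatin, and so relieve principal neurons of inhibition. In the basolateral amygdala they are known for responding to salient and aversive events and for gating the plasticity of principal neurons during learning.

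The libraries differed in depth and in quality. Library 2 held 3792 barcodes with a median of 3315.5 UMIs and library 3 held 4588 with a median of 4115.5, and 3772 and 4512 of them passed the limits of more than 200 genes and less than 20% mitochondrial UMIs. Library 1 held 819 barcodes with a median of 7725 UMIs and stood apart: Gad1 or Gad2 was found in 70.1% of its barcodes and Slc17a7 or Slc17a6 in 84.9%, so that only 19 entered the base, 2 of them as members. Membership and every comparison therefore rest on libraries 2 and 3. These shared 7 barcode sequences, none of them in the base, and 1 of the 56 members was among the barcodes that a doublet score marked.

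Members were 17 of 605 base nuclei in library 2, which is 2.81% with an exact Clopper-Pearson 95% interval of 1.65 to 4.46%. In library 3 they were 39 of 1041, or 3.75% with an interval of 2.68 to 5.09%. The mean share was 3.28% ± 0.66 (SD, n = 2 libraries). The intervals overlap, and here and below they cover counting error only. Vip brought in 45 members and Prox1 with Adra1b the other 11, of which library 2 gave 2. The members had median totals of 5609 and 5809 UMIs in libraries 2 and 3, close to the 5924 and 6230 of the other 1590 base nuclei, with a range of 1122 to 39021.

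Vip, the gene of the peptide that names these cells, lies on chromosome 10 from 5639218 to 5647617 on the forward strand (GRCm38). The 250 bases before its start, chr10:5638968-5639217 on the forward strand, are shown because Vip is the gene on which most members were chosen. The sequence is RefSeq's for GRCm38.p6, written 5' to 3', and the capitals mark matches to TATAAA, the core of the TATA box, and to TGACGTC, all but the last letter of the palindromic cyclic AMP response element.
Vip: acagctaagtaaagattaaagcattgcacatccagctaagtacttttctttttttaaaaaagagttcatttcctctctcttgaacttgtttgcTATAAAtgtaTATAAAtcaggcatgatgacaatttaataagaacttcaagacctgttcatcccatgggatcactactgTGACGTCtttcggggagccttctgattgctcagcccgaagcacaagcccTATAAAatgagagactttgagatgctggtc
Both motifs were searched on both strands and did not overlap. TGACGTC began 79 bases before the start and TATAAA 30, 147 and 157 bases before it. Among 32851 promoter windows of the same length, 2.78% held TGACGTC and 12.4% held TATAAA. A match is a description of the letters and no evidence of a bound factor.

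Vip was read at low numbers even in the nuclei chosen for it. The members held 105 Vip UMIs, 46 in library 2 and 59 in library 3, with 22 members at 1 UMI, 11 at 2 and 12 at 3 or more, and a highest count of 11 in each library. Its level was 413 CPM, counts divided by the UMI total and scaled to 1000000, in the members of library 2 and 212 CPM in those of library 3, against 3.21 and 2.10 CPM in the other base nuclei. Library 2 was thus the higher of the pair, and in both libraries the members stood far above the rest, as the rule requires. Prox1, the homeobox factor of caudal interneurons on chromosome 1 from 190118035 to 190170714, was found in 76.5 and 76.9% of members at 368 and 306 CPM. Adra1b, an alpha-1 adrenergic receptor on chromosome 11 from 43774606 to 43901210, was found in 88.2 and 84.6% of members. Its UMI sums in the members happened to equal those of Prox1, 41 and 85, although the nuclei that carried them differed. Egfr, the epidermal growth factor receptor on chromosome 11 from 16752203 to 16918158, was found in 70.6 and 59.0% of members at 584 and 428 CPM. Its use in the rule was only to keep nuclei out, and other base nuclei had 92.3 and 69.4 CPM.

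**Figure D1:**
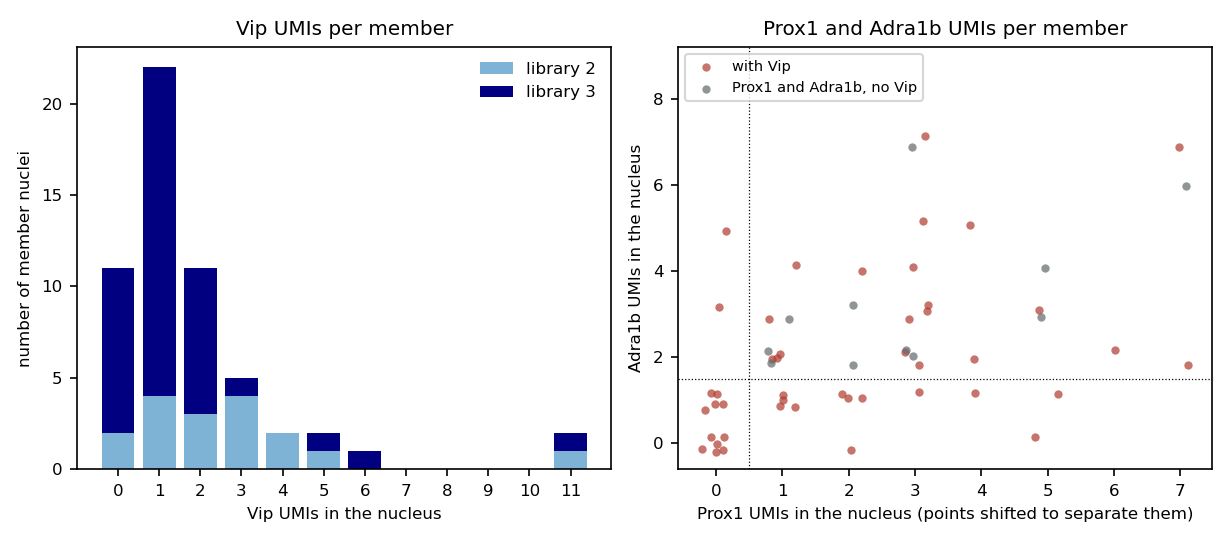
Left, the number of members (bar height) at each count of Vip UMIs, stacked by library; right, Prox1 against Adra1b UMIs with 1 point for each of the 56 members, coloured by whether Vip was present and with dotted lines at the limits of the rule. Most members with Vip hold 1 or 2 of its UMIs, and 20 of them lie beyond both dotted lines.

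The values near the limits show how much of the membership turns on 1 UMI. Inside, 22 members had exactly 1 Vip UMI, 5 had exactly 2 Adra1b UMIs without Vip, 11 had exactly 3 Cnr1 UMIs and 2 had exactly 2 Foxp2 UMIs. Just outside stood 12 base nuclei with Prox1 and 1 Adra1b UMI, 5 that met the Prox1 and Adra1b limits but carried Reln and Egfr, and those of the 58 base nuclei with Vip that another gene kept out, 6 by Foxp2, 2 by Sst and 5 by Cnr1.

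Free RNA in a droplet can give a UMI to a nucleus that does not express the gene, so the same shares were read in other cell types. A Vip UMI was found in 0 of 99 and 2 of 116 oligodendrocyte nuclei (0 and 1.72%, median depths of 2597 and 2014 UMIs) and in 1 of 252 and 0 of 63 glutamatergic nuclei (0.397 and 0%, median depths of 21321 and 16614 UMIs). A count of 0 allows a share of up to 3.03% in the 99 and 4.76% in the 63 nuclei. After each nucleus was thinned to 1200 UMIs, Vip remained in 7 of 16 members of library 2 (43.8%) and 7 of 39 of library 3 (17.9%), against 0.181 and 0.101% of other base nuclei, with 1 member of library 2 and 36 and 15 other nuclei too shallow to be thinned. The share in members is fixed by the rule, so these values describe the background alone. Prox1 had a UMI in 29.3 and 37.9% of oligodendrocyte nuclei. Thinned to 1200 UMIs, it remained in 15 of 79 oligodendrocyte nuclei of library 2 (19.0%). There it was in 0 of 252 glutamatergic nuclei and 0 of 224 base nuclei with 3 or more Foxp2 UMIs. These thinned values are of library 2 alone, and the source of the oligodendrocyte share was not tested. Adra1b had no UMI in the oligodendrocyte nuclei, which allows shares of up to 3.03 and 2.59%, and was present in 10.3 and 9.52% of the much deeper glutamatergic ones.

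The members were also described by a split that used Vip alone. The 58 base nuclei with Vip (19 and 39 in libraries 2 and 3) were set against the 586 and 1002 without. Adra1b was at 357 and 199 CPM with Vip and 16.4 and 10.9 CPM without it. Prox1 was at 377 and 238 CPM against 26.6 and 19.6 CPM, and Egfr at 648 and 423 CPM against 85.5 and 68.2 CPM. All 3 further markers given for these cells lay higher in both libraries where Vip was present, but they were picked with earlier results of these data known, so this is a description and no independent check of the label. Cnr1, the cannabinoid receptor of Cck basket cells, was at 225 and 160 CPM against 54.1 and 51.2 CPM. Reln was at 66.1 and 97.7 CPM against 203 and 181 CPM, Sst at 6.61 and 6.51 CPM against 35.8 and 39.0 CPM, and Foxp2, a factor of intercalated and striatal-type neurons, at 0 and 348 CPM against 747 and 1219 CPM.

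Genes outside the rule were tested in the same split, on UMIs summed by library, with edgeR's quasi-likelihood test. Of 10750 genes, 135 were higher with Vip (1.26%) and 107 lower (0.995%) at an adjusted p under 0.05, counts that include rule genes other than Vip. Adarb2, a caudal interneuron marker, was at 14276 and 13033 CPM against 3471 and 3431 CPM and rose by 1.97 ± 0.38 (SE, n = 2 libraries, edgeR adjusted p = 0.00578). Of 12 genes listed for the caudal ganglionic eminence, transcription factors and Adarb2, 4 were called higher and 0 lower. They were Adarb2, Npas3, Zeb2 and the rule gene Prox1. Grpr, the receptor of gastrin-releasing peptide, rose by 4.58 ± 0.85, Sall1, a zinc finger factor, by 3.84 ± 0.65, and Igf1, an insulin-like growth factor, by 2.72 ± 0.29. With the library as a block 540 genes were called in place of 242, and DESeq2 called 147 higher and 46 lower. Both arms of every comparison come from the same libraries, and p-values measure only the spread between libraries 2 and 3, which is technical if they hold the same animals.

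Set against all 1590 other base nuclei, the members were higher in genes of caudal interneurons. The rule barred nuclei with Sst or with 3 or more Foxp2 UMIs from the members and left them in the comparison group, where 785 had such Foxp2 counts, so lower levels of genes that go with Foxp2 or Sst follow in part from the rule. Of 10604 genes outside the rule, 156 were higher in members (1.47%) and 163 lower (1.54%), with a median log2 fold change of -0.10 over all genes tested. With the library as a block 575 genes were called in place of 319, and DESeq2 called 164 higher and 96 lower. The deepest member, of library 3, gave 10.0% of all member UMIs, and without it 471 genes were called, 318 of them among the 319.

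The list for the caudal ganglionic eminence, transcription factors and Adarb2, had 4 of 10 tested genes higher in members and 0 lower. Of all genes tested, 1.47 and 1.54% were. The list had a median log2 fold change of 1.53. Adarb2, a relative of RNA-editing enzymes that is used as a marker of caudal interneurons, was at 16056 and 16421 CPM in members and 3524 and 3344 CPM in other base nuclei. The libraries agreed closely, the groups did not overlap, and the gene rose by 2.24 ± 0.41 (edgeR adjusted p = 0.00227). It was found in 54 of 56 members. Npas3 was at 3682 and 3145 CPM against 861 and 794 CPM and rose by 2.03 ± 0.31, and Zeb2 by 1.25 ± 0.27. Dlx1, a homeobox factor of GABAergic neurons, passed with 2.21 ± 0.59 (adjusted p = 0.0467), with an adjusted p of up to 0.105 among the alternatives. Nr2f2 and Npas1, both caudal factors, were each found in 13 of 56 members and did not pass, with adjusted p = 0.0561 and 0.140.

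The list for the medial ganglionic eminence had 1 of 5 genes lower and 0 higher, where 1.54 and 1.47% of all genes tested were. That gene was Sox6, which medial interneurons need to mature, at 26.9 and 18.0 CPM in members against 512 and 457 CPM, a log2 fold change of -4.51 ± 0.40 (edgeR adjusted p = 8.84e-07). It was read in 5 of 56 members. The list of Sst-type markers, taken from somatostatin interneurons, had 3 of 10 genes lower, namely Calb1, Moxd1 and Tacr1. Of 14 intercalated and striatal-type markers, 4 were lower and 0 higher, which the limit on Foxp2 sets in part. Among them Meis2, a homeobox factor of intercalated neurons, was at 8.98 and 208 CPM in members against 1253 and 1731 CPM, and 46 of the 59 Meis2 UMIs of the members lay in the deepest nucleus. Rarb, a retinoic acid receptor, fell by 2.20 on the log2 scale (adjusted p = 0.00365). Against base nuclei with Foxp2 under 3, Meis2 and Rarb were not called (edgeR adjusted p = 0.231 and 0.223), and 2 other genes of that list were, Rmst and Tshz2, with 0 called by DESeq2.

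**Figure D2:**
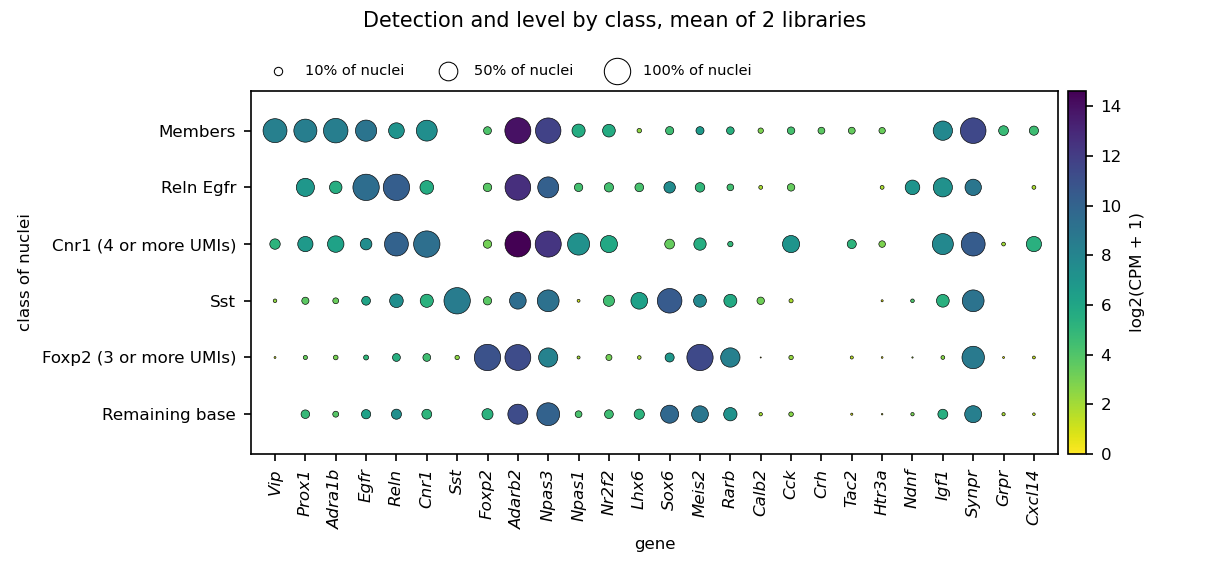
Share of nuclei with a UMI (dot size) and log2(CPM + 1) (colour), as means of the 2 libraries, for genes of the rule and interneuron markers in the members and the other classes of base nuclei. Members and Cnr1 nuclei both hold large, dark dots of Adarb2, and members hold a large dot of Synpr and small ones for Sox6, Meis2 and the peptides Cck, Crh and Tac2.

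Markers by which Vip cells of the cortex are divided into subtypes were next. Of 12 tested genes, from a list of 30, 6 were higher and 0 lower, where 1.47 and 1.54% of all genes tested were. Their median log2 fold change was 2.44. Against base nuclei with Foxp2 under 3, 3 of 12 were higher. Against the Reln Egfr, Cnr1 and Sst nuclei described below, 1, 0 and 3 of 9 were higher. Cck was lower in members than in Cnr1 nuclei, so the rise of this list was not particular to the members. Synpr, which encodes the synaptic vesicle protein synaptoporin, was at 2676 and 2944 CPM in members and 457 and 424 CPM in the rest. It was read in 53 of 56 members and rose by 2.68 ± 0.31 (edgeR adjusted p = 2.60e-05). Slc5a7, the choline transporter of cells that make acetylcholine, was at 26.9 and 18.0 CPM against 2.98 and 0.394 CPM and rose by 3.87 ± 0.94, on UMIs in 6 members. It passed the filter on low counts only through its level in members, so its call is a description and no support. The 6 higher genes include Slc5a7, and others of them may have passed in the same way. The count and median of this list are therefore a description. Grpr rose by 3.91 ± 0.84 and was read in 7 members. Cxcl14, a chemokine of caudal interneurons, rose by 2.78 ± 0.73 (edgeR adjusted p = 0.0396), with an adjusted p of up to 0.502 among the alternatives. It was read in 5 of the 11 members without Vip and in 2 of the 45 with Vip. In the split by Vip alone it was not called. The acetylcholine-synthesising enzyme Chat had 0 UMIs in the 56 members, which allows up to 5.36% of nuclei with a UMI and sets no limit on nuclei that express the gene.

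Peptides other than Vip were sparse. Of 9 tested peptide precursors 0 were called in either direction by edgeR, 1 at an unadjusted p under 0.05, and 0 by DESeq2. Cck was read in 5 of 56 members, Crh in 4, Tac2 in 4, Penk in 2 and Npy in 1. Calb2, the calretinin gene that marks one of the known Vip subtypes, was read in 2 of 56, an exact interval of 0.435 to 12.3%. Crh, which encodes corticotropin-releasing hormone, had 5 UMIs in the members and 0 in the 1590 other base nuclei, where a count of 0 allows a share of up to 0.189%. All 4 nuclei with Crh had Vip. Cck stood at 8.98 and 28.8 CPM in members and 7.56 and 12.5 CPM elsewhere (adjusted p = 0.561). Htr3a, the serotonin receptor of caudal interneurons, was read in 2 members.

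The genes with the largest rises lay mostly outside the marker lists. Sntb1, a syntrophin of the dystrophin complex on chromosome 15 from 55636388 to 55906949, was at 269 and 176 CPM in members against 18.3 and 18.9 CPM, and rose by 3.49 ± 0.27 (edgeR adjusted p = 2.14e-07). It was read in 19 of 56 members. Plpp4, a phospholipid phosphatase on chromosome 7 from 129257031 to 129391412, was at 207 and 259 CPM against 27.3 and 19.2 CPM, was read in 26 members and rose by 3.42 ± 0.27. In both genes the member levels of the 2 libraries lay above those of the other base nuclei. Fbln2, an extracellular matrix protein, was at 162 and 71.9 CPM against 12.8 and 5.77 CPM. Rspo2, an enhancer of Wnt signalling that is better known from glutamatergic amygdala neurons, was at 80.8 and 25.2 CPM against 3.44 and 6.30 CPM and rose by 3.07 ± 0.64. Rspo2 passed the filter on low counts only through its level in members, so its call is a description. Scn7a, a sodium-sensing channel protein, Acadl, an enzyme of fatty acid oxidation, and Tshr, the thyrotropin receptor, rose by 3.54, 3.12 and 3.38, each on a few nuclei.

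Some of the largest rises lay beside genes already described. Prox1os, which rose by 4.12 ± 0.49 from 3.89 and 4.07 CPM to 71.8 and 68.3 CPM, is a transcript on chromosome 1 from 190170296 to 190217276 on the strand opposite to Prox1 and overlaps its end. Gm5087 rose by 4.04 ± 0.35 and lies on chromosome 14 from 13157388 to 13284638, next to Synpr, which runs from 13284780 to 13616340 on the other strand. Whether the counting used strand is not given in the sources used here, so reads in the overlap of Prox1os and Prox1 cannot be assigned. Prox1os is not independent of the rule, and it passed the filter on low counts only through its level in members. Gm5087 and Synpr do not overlap in these positions.

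The 8 named genes with the largest fitted falls had 0 UMIs in the members, so their fitted values depend on the prior count and only bounds are given, with the members at a floor of 3 counts. Kcnh8, a potassium channel of the ether-a-go-go family, was at least 5.97-fold lower, Mdga1, an adhesion protein that binds neuroligins, at least 5.14-fold, and Casz1, a zinc finger factor, at least 2.96-fold. Gm13974, G630016G05Rik, Ccdc187, Dtnbp1 and Nxph2 lay between 3.51 and 6.10-fold.

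**Figure D3:**
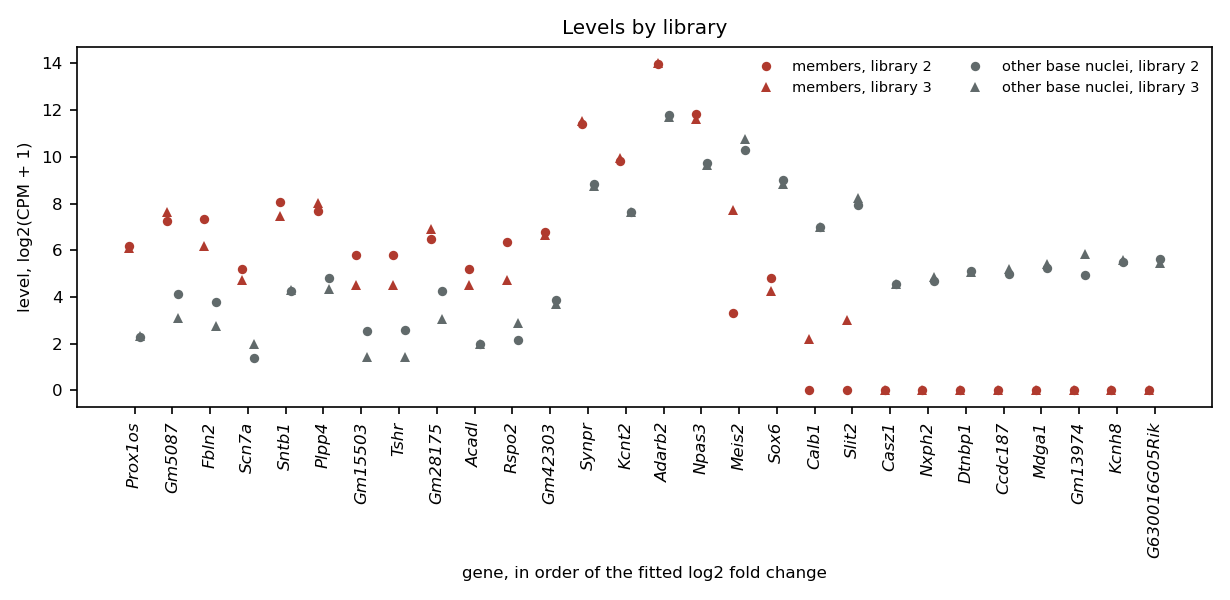
Level as log2(CPM + 1) of called genes, in the order of their fitted log2 fold change, with members in red, other base nuclei in grey, circles for library 2 and triangles for library 3. The member points of Sntb1, Plpp4, Synpr and Kcnt2 lie above both points of the other base nuclei, and those of Sox6, Calb1 and Slit2 below.

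Among receptors for amines, acetylcholine and cannabinoids, both directions were seen. Of 18 such genes 4 were higher and 2 lower, where 1.47 and 1.54% of all genes tested were. Adrb1, a beta adrenergic receptor, was at 89.8 and 35.9 CPM in members against 10.8 and 9.71 CPM and rose by 2.40 ± 0.50 (edgeR adjusted p = 0.00734), with an adjusted p of up to 0.287 among the alternatives. Chrna7, a nicotinic acetylcholine receptor subunit, was at 260 and 226 CPM against 95.1 and 89.9 CPM and rose by 1.39 ± 0.24. Chrm3, a muscarinic receptor, was at 817 and 956 CPM against 390 and 369 CPM, and the serotonin receptor gene Htr2c at 790 and 690 CPM against 320 and 341 CPM. In the other direction Htr1f, a serotonin receptor, was at 44.9 and 93.5 CPM against 561 and 705 CPM and Chrm2, the inhibitory muscarinic receptor, at 26.9 and 7.19 CPM against 127 and 120 CPM. They fell by 3.01 and 3.21 on the log2 scale. Of 15 peptide receptors, Grpr and Npy1r were higher and Tacr1, the substance P receptor, lower.

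Receptors for fast transmitters were also read. Gabrb2, a GABA receptor subunit, was at 934 and 967 CPM in members against 410 and 395 CPM and rose by 1.25 ± 0.26 (edgeR adjusted p = 0.00827). Of 22 glutamate receptor genes 1 was higher and 3 lower, where 1.47 and 1.54% of all genes tested were. Grik4, a kainate receptor subunit, rose by 0.97 ± 0.24, while Grik3, another, fell by 1.84 and Gria3, an AMPA receptor subunit, by 1.26 on the log2 scale. Grin2a, an NMDA receptor subunit, was at 467 and 776 CPM against 1404 and 1597 CPM. For Grik4 and Grin2a the adjusted p reached 0.153 and 0.120 among the alternatives.

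Of 33 potassium channel genes 3 were higher and 4 lower, where 1.47 and 1.54% of all genes tested were. Kcnt2, a sodium-activated potassium channel, was at 907 and 985 CPM in members and 199 and 200 CPM in the rest, was read in 52 of 56 members and rose by 2.26 ± 0.26 (edgeR adjusted p = 2.60e-05). Kcnd2, an A-type channel, was lower, at 1033 and 992 CPM against 4341 and 6046 CPM. Kcnh5, of the ether-a-go-go family, fell by 4.39 on the log2 scale. Of 26 sodium, calcium and HCN channel genes 0 were higher and 1 lower, which beside those shares is not read as a trait of the family. That gene was Cacna2d2, a calcium channel subunit, with UMIs in 1 member and a ratio of other nuclei to members of 16.5 (counting interval 4.56 to 137).

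Adhesion and guidance genes moved in both directions, with 4 of 51 higher and 6 lower, where 1.47 and 1.54% of all genes tested were. Slit2, a secreted guidance protein on chromosome 5 from 47983138 to 48307733, was at 0 and 7.19 CPM in members against 243 and 298 CPM, a ratio of 54.1 (counting interval 15.0 to 447). Sema3a, a secreted semaphorin, was at 0 and 10.8 CPM against 109 and 95.8 CPM, and Ntng1, netrin G1, fell by 2.31 on the log2 scale. Of 12 genes for GABA synthesis, release and calcium binding 1 was lower and 0 higher. That was Calb1, the calbindin gene on chromosome 4 from 15881264 to 15908064, with UMIs in 1 member against 128 and 127 CPM in other base nuclei, a ratio of 49.7 (counting interval 8.90 to 1963).

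**Figure D4:**
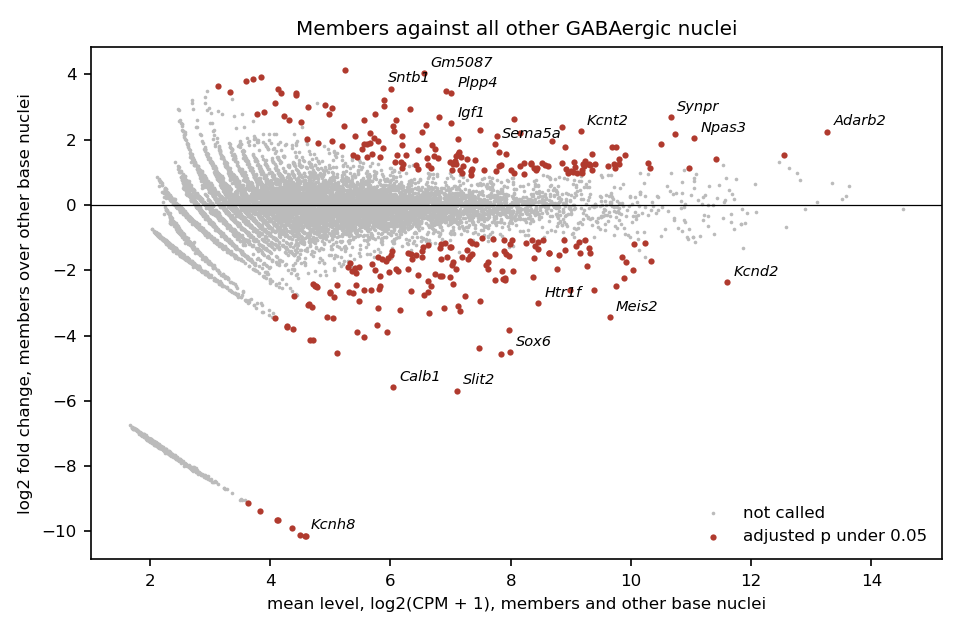
Log2 fold change of members against other base nuclei for every gene tested (vertical axis), against the mean level as log2(CPM + 1), with called genes in red. Called genes lie on both sides, 156 above and 163 below.

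Marker lists of other cell types had few called genes, and their part in the results above was not tested. The 7 oligodendrocyte genes summed to 80.8 and 342 CPM in members and 243 and 333 CPM in other base nuclei, against 21946 and 21282 CPM in oligodendrocyte nuclei, with 0 of 7 called by edgeR, 0 at an unadjusted p under 0.05 and 0 by DESeq2. The 9 astrocyte genes summed to 189 and 410 CPM against 850 and 611 CPM, and 2 of the 4 tested, Gpc5 and Slc4a4, were lower. Microglial genes summed to 26.9 and 57.5 CPM against 52.9 and 31.2 CPM, with C1qa and C1qb at 0 in members. The 12 glutamatergic markers summed to 772 and 543 CPM against 880 and 749 CPM, with Neurod2 at 0 besides the transporters that the rule set to 0. Activity-induced genes summed to 189 and 140 CPM against 190 and 198 CPM.

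Leaving out nuclei with 3 or more Foxp2 UMIs left 364 and 441 other base nuclei. Of 9491 genes, 100 were higher in members (1.05%) and 99 lower (1.04%). With the library as a block 306 genes were called in place of 199, and 83 when Adra1b had to reach 3 UMIs for the second way in. DESeq2 called 84 higher and 51 lower. Adarb2 and Npas3 were higher, and Sox6, Lhx6 and Satb1, all factors of medial interneurons, were lower, 3 of 5 in that list. Sst nuclei stayed in this comparison group, so these falls follow in part from the rule. Sox6 was at 26.9 and 18.0 CPM in members against 791 and 917 CPM. Lhx6 had 1 UMI in the members, a ratio of 15.3 (counting interval 2.71 to 605), and adjusted p-values of up to 0.286 among the alternatives.

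Sntb1, Plpp4 and Fbln2 again led the rises. Next to them stood St3gal1, a sialyltransferase, by 3.30 ± 0.55, and Asic4, a relative of acid-sensing channels, by 3.14 ± 0.56. Igf1 was at 269 and 169 CPM in members against 67.3 and 65.0 CPM and rose by 1.67 ± 0.26. Calb1 was lower with a ratio of 86.4 (counting interval 15.5 to 3417). Nxph2, a neurexophilin that binds neurexins, had 0 UMIs in members against 42.6 and 52.1 CPM and was at least 6.24-fold lower with members at a floor of 3 counts. Adrb1 and Chrna7 were again higher, and Htr1f and Chrm2 lower.

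The other interneuron classes were compared next, all in 1 fit with 5929 genes, so these 3 comparisons share the same member sums. The limits on Reln with Egfr, Cnr1 and Sst set these classes apart from the members. Differences in genes that go with them therefore follow in part from the rule. The Reln Egfr nuclei, 57 base nuclei with both genes and no Vip, have the markers of neurogliaform-type cells. Members were higher in 112 genes (1.89%) and lower in 89 (1.5%). Adarb2 was at 16056 and 16421 CPM against 6629 and 6409 CPM and rose by 1.38 ± 0.26, and Synpr by 2.69 ± 0.33. Grm7, a metabotropic glutamate receptor of presynaptic terminals, was at 4319 and 4432 CPM against 1049 and 853 CPM and rose by 2.27 ± 0.26 (edgeR adjusted p = 0.000193). Htr2c was higher as well, at 790 and 690 CPM against 143 and 109 CPM.

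The neurogliaform list had 3 of 9 genes lower and 1 higher. Ndnf, the secreted factor that marks neurogliaform cells, had 0 UMIs in members against 107 and 158 CPM, at least 17.7-fold lower at the floor (edgeR adjusted p = 0.0494, DESeq2 0.407). Kit, a receptor tyrosine kinase, was at 53.9 and 43.1 CPM against 174 and 421 CPM and fell by 2.66 on the log2 scale. Grin2a was much lower, 467 and 776 CPM against 3458 and 4875 CPM, and Unc5c, a netrin receptor, was at 341 and 1165 CPM against 3519 and 3853 CPM. Car10, a carbonic anhydrase relative that was on the neurogliaform list, rose by 1.92 ± 0.33. Stum was at 44.9 and 46.7 CPM in members and 0 in the Reln Egfr nuclei, at least 7.11-fold higher at the floor.

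The Cnr1 nuclei, 37 with 4 or more Cnr1 UMIs, include Cck basket-type cells and were deeper, with median totals of 13187 and 11071 UMIs. Members were higher in 69 genes (1.16%) and lower in 82 (1.38%), and with the library as a block 265 genes were called in place of 151. The list for the caudal ganglionic eminence, which also holds Adarb2, had 0 of 8 genes called by edgeR. It had 3 at an unadjusted p under 0.05 and 1 by DESeq2, with a median log2 fold change of -0.58. The summed level of the list was 21596 and 21274 CPM in members, mostly Adarb2, and 30905 and 34410 CPM in Cnr1 nuclei. These genes were thus not particular to the members. Col25a1, a membrane collagen of the Cck basket-type list, was at 180 and 205 CPM against 3120 and 3489 CPM and fell by 4.11 on the log2 scale (SE 0.26, edgeR adjusted p = 1.22e-07). Cck was at 8.98 and 28.8 CPM against 90.4 and 178 CPM (adjusted p = 0.0304). Sntb1 was at 269 and 176 CPM against 0 and 6.46 CPM, a ratio of 50.5 (counting interval 13.5 to 424), with the gene read in 1 Cnr1 nucleus. Grm7 rose by 1.95 ± 0.26 and Grik4 by 1.76 ± 0.31. Oligodendrocyte markers moved with this comparison: 1 of 5 tested, Mbp, was called higher in members by edgeR. Of the 5, 4 had an unadjusted p under 0.05 and 2 were called by DESeq2. The 7 genes of that list summed to 80.8 and 342 CPM in members and 21.3 and 25.8 CPM in Cnr1 nuclei, with 4 of them at 0 in the latter, and their part in the other differences was not tested.

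The Sst nuclei were the 120 with an Sst UMI. Members were higher in 169 genes (2.85%) and lower in 144 (2.43%). Of 10 Sst-type markers 9 were lower, and of 4 medial factors 3 were, with 0 higher in both lists. Sst set this class apart from the members, so these falls follow in part from the rule and are a description. Adarb2 rose by 4.64 ± 0.30, from 902 and 481 CPM, and Sox6 fell by 6.05 on the log2 scale from 1249 and 1629 CPM. Kcnq5, a channel of the M current, was at 2299 and 2822 CPM against 391 and 372 CPM and rose by 2.81 ± 0.36. Erbb4, the neuregulin receptor of interneurons, was read in all 56 members, at 11871 and 13700 CPM against 2475 and 3353 CPM. Crhbp, the binding protein of corticotropin-releasing hormone, had 0 UMIs in members and was at least 6.38-fold lower. Calb1 was also lower, with 1 member against 223 and 324 CPM.

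**Figure D5:**
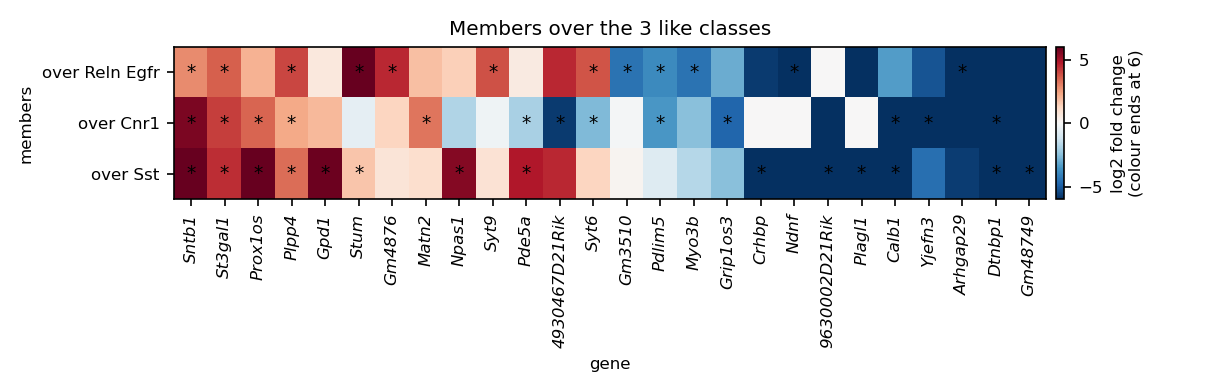
Log2 fold change of members against the Reln Egfr, Cnr1 and Sst nuclei for 26 genes, with called values marked. The genes are the largest called changes of the 3 comparisons, and the oligodendrocyte gene Mbp was left out by name. Sntb1, St3gal1 and Plpp4 are called in all 3, which share the member sums.

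Few genes that the rule did not use were called between members that entered by Vip and those that entered by Prox1 and Adra1b. Of 1613 genes tested, 1 was higher with Vip (0.062%) and 4 lower (0.248%) by edgeR, 107 had an unadjusted p under 0.05, and DESeq2 called 0 (31 unadjusted). Sntb1 was at 300 and 251 CPM in members with Vip and 0 and 22.1 CPM in the others. Cadps2, a protein of dense-core vesicle release, was at 110 and 219 CPM against 2946 and 618 CPM, and Ptprm, a receptor phosphatase, at 120 and 58.6 CPM against 357 and 739 CPM. Of the 67 Ptprm UMIs of the second kind in library 3, 63 lay in a nucleus with 2 Adra1b UMIs and 0 of Synpr, Kcnt2 and Npas3. Without it the level there was 51.1 CPM, below that of members with Vip. With the deepest member left out 4 genes were called, 2 of them among the 5. Library 2 had 2 members of the second kind, with 11202 UMIs in all. The few calls therefore do not show that the 2 kinds are alike.

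Grouped by their Vip count, the members differed in some genes and not in others, which is a description without a test. Egfr, which the rule did not ask for, was read in 3 of 11 members without Vip, 15 of 22 with 1 Vip UMI and 17 of 23 with 2 or more. Its absence is in part fixed by the rule, which barred Reln with Egfr where Vip was missing. Synpr was read in 10, 20 and 23, and Kcnt2 in 10, 19 and 23, of the same groups. Sntb1 was read in 1, 8 and 10, and Reln in 8, 6 and 6. The groups had median totals of 5609, 5373 and 5905 UMIs. Of the 45 members with Vip, 32 had Prox1 and 37 had Adra1b, and 20 met the limits for both.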

How the data were processed

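Single-nucleus RNA was measured in 3 libraries of 1 group, and the authors deposited matrices of UMI counts per gene and barcode (32285 genes), made with Cell Ranger 7.0.1 and mm10 per the submitters' notes and the study's methods; whether strand was used is not given in the sources used here. All other steps were run on these counts. The members, the gene lists and the tests were chosen with earlier results of these data known.

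Barcodes with more than 200 genes and less than 20% mitochondrial UMIs were kept. The rest of the base, without the members, was put into classes by the first limit that applied: Foxp2 of 3 or more, Sst, Cnr1 of 4 or more, Reln with Egfr. Oligodendrocyte nuclei had at least 1% of UMIs from myelin genes and glutamatergic nuclei at least 3 Slc17a7 UMIs with no Gad1 or Gad2. UMIs were summed by class and library, so that n is 2 libraries and nuclei are not replicates. These sums were tested with edgeR 4.0.16 (TMM, filterByExpr, quasi-likelihood test) and Benjamini-Hochberg adjustment over all genes tested, with a threshold of 0.05. Genes of the rule were left out of the calls, except in the split by Vip, where only Vip was. All classes were in 1 fit for the comparisons with the Reln Egfr, Cnr1 and Sst nuclei. The filter kept a gene that reached its limit in 2 sums, so some genes were tested only through the side where they were high. Library totals give the depth: 24354374 and 33049068 UMIs in libraries 2 and 3, and 8078394 in library 1.

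Alternatives were DESeq2 1.42.0, the library as a replicate block, no filter on low counts, thinning to 1200 UMIs, barcodes marked by a Scrublet score (scanpy 1.11.5, 0.8% per 1000 barcodes) left out, other limits of the rule, a limit on hemoglobin UMIs (0.2%), and, added after seeing the data, the deepest member left out. Doublets were otherwise kept. The 2 sums of a library come from the same pooled tissue, so the library pairs them by design; the differences between libraries correlated across genes with r of 0.123 for members and all other base nuclei, and 0.0586 to 0.162 over all comparisons.

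Named genes were the genes of the rule, up to 4 called genes of each list with the largest fold and at least 10 CPM, and the largest called changes with at least 20 CPM in both libraries of the higher class (12 up and 8 down for the 2 broad comparisons, 5 each way for the others). Genes that were not called, Chrm3, Htr2c, and the peptide and subtype genes given as counts of members fall outside this rule and were chosen after their values were seen. Positions are from GENCODE vM21 on GRCm38, which held 99.8% of gene IDs. On simulated counts for members and all other base nuclei, 18% of genes changed 2-fold and 100% of those changed 4-fold were called, with 8 false calls among 10586 genes. Only well-counted genes were changed, always upward in members, and all genes were drawn at a fixed dispersion. These rates therefore do not hold for genes of low counts, for falls or for genes of wider spread. Other tools were Python 3.11.15 and R 4.3.3.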

Additional observations from a re-analysis of the deposited data

Results flagged for a closer look

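Library 1 gave a signal outside the comparisons. A Vip UMI was found in 220 of its 819 barcodes, or 26.9% (exact interval 23.9 to 30.0%), against 1.47% of kept nuclei in libraries 2 and 3, and in 27.3% of the 77 library 1 nuclei that met the glutamatergic limits. Of the 220, 166 also carried both a Gad1 or Gad2 UMI and a Slc17a7 or Slc17a6 UMI. It is given here as a signal in a library that no comparison uses; depth and library differ from those of libraries 2 and 3.

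In libraries 2 and 3, 64 of the 122 nuclei with a Vip UMI lay outside the GABAergic base and so in no comparison. Of the 122, 43 had no Gad1 or Gad2 UMI, whatever else they carried. Among those with Gad1 or Gad2, 18 had a Slc17a7 or Slc17a6 UMI. A further 3, with neither transporter, were over the astrocyte limit. Adra1b was read in 22 and Prox1 in 20 of the 64.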

How the results depend on the processing

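The mean share of members in the base was 3.28%; it was 5.69% with replicate 1, 2.54% with a Vip limit of 2, 1.55% when nuclei were thinned before the rule, and 2.81 to 3.75% when either library was left out. Counts of called genes moved by over 1.5 times in these settings. Thinned to 1200 UMIs, the count went from 319 to 153 against all other base nuclei, from 199 to 31 against those with Foxp2 under 3, from 201 to 91 against Reln Egfr, from 151 to 62 against Cnr1, from 313 to 181 against Sst nuclei and from 242 to 155 for nuclei with Vip; fewer genes were tested there. With the library as a replicate block, which pairs the sums, it rose to 575, 306, 265 (Cnr1) and 540 (Vip); in the other comparisons the block kept the count within 1.5 times. With the Vip arm only it was 489 and 307 in the first 2 comparisons, and 83 with an Adra1b limit of 3 and Foxp2 under 3. Between the ways of entry it was 5, against 0 by DESeq2, 3 with no filter and 0 when thinned. Tnfaip8l3 against all other base nuclei, the one gene that reversed, stood at -1.19 without replicate 3 and 2.35 without replicate 2 on the log2 scale; the cause was not tested. Leaving out a library leaves no residual degrees of freedom, so counts have no value there. Over the settings run for the first comparison, the named genes kept their side of the threshold 565 times and lost it 39 times; of the 62 named, the log2 fold change moved by more than its spread in 17 without replicate 2 and in 28 without replicate 3. Depth limits what can be seen, with 111362 and 278181 UMIs in the members.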
